A study of Mus musculus with 4 samples.

Results

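The secreted Wnt modulators are 9 genes, Wnt5a, Sfrp1, Sfrp2, Sfrp4, Sfrp5, Frzb, Wif1, Dkk2 and Dkk3, out of the 32285 genes counted in spatial transcriptomes of injured mouse brain. They were chosen by name, with their levels by slice and spot class already known, and each was measured in unique molecular identifiers (UMIs, counted RNA molecules) per 10000 UMIs of all genes. Levels were taken in fibrotic spots, defined by at least 5 Col1a1 UMIs per 10000, and in spots with no Col1a1 UMI (Col1a1 encodes the collagen chain that fibroblasts deposit in scar). Spatial transcriptomics used Visium capture areas, on which barcoded spots that each cover several cells take up RNA from a brain slice. There were 4 capture areas with 2 slices each, 1 slice per mouse.

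Wild-type slices came from a mouse without injury (rest), a mouse 2 days after photothrombotic (PT) cortical injury (2 dpi), 2 mice at 7 dpi and 2 mice at 21 dpi. A further 2 mice at 21 dpi after PT injury carried Cthrc1(creER); R26(DTA). In this deleter genotype, a tamoxifen-inducible Cre driven by Cthrc1, a myofibroblast gene, switches on diphtheria toxin A from the Rosa26 locus. According to the study the deletion was undetectable in these mice. Fibrotic spots held 0.101 and 0.132 Cthrc1 UMIs per 10000 in the deleter slices (26 and 48 UMIs), against 0.219 and 0.175 in wild type of the same day (49 and 50 UMIs). Spots with no Col1a1 UMI had a similar gap, at 0.0627 to 0.0858 in the deleter slices and 0.117 to 0.121 in wild type. Of 5 myofibroblast markers, Cthrc1 among them, 0 differed in fibrotic spots in the genotype test given below. In simulated data that test recovered 17% of 2-fold changes, so it could not show that these markers were unchanged. Each genotype was 1 capture area. The age of each mouse and the tamoxifen schedule of the deleter mice were not given in the labels. Rest and 2 dpi shared a capture area, and the piece of 1017 spots was taken as rest and that of 1726 spots as 2 dpi from the sizes given for them rather than from a label.

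The 8 slices held 9340 spots and 123344741 UMIs, with a median of 12447 to 16158 UMIs per spot in each slice other than 2 dpi, where it was 2633.5. In fibrotic spots alone the median was 4923.5 and 9206.5 at 7 dpi, 10828 and 13879 in wild type at 21 dpi, and 11111 and 12233 in the deleter slices. Depth in fibrotic spots thus also differed with time, and its part in the members' levels was not tested. There were 3 fibrotic spots at rest, 26 at 2 dpi, 112 and 392 at 7 dpi, 170 and 203 in wild type at 21 dpi and 193 and 274 in the deleter slices, so fibrotic levels were compared over the 6 slices at 7 and 21 dpi with 1344 fibrotic and 2525 Col1a1-free spots. Summed levels of 6 fibroblast markers, Col1a1 among them, were 52.2 to 143 UMIs per 10000 in fibrotic and 1.03 to 1.22 in Col1a1-free spots of these slices. Col1a1 defines the classes, so its part of these sums, 14.4 to 41.5 and 0, is no check of them. In the same spot classes 5 neuron markers summed to 7.67 to 12.7 and 29.8 to 62.9. Time coincided with capture area, and in the wild-type slices at 7 and 21 dpi also with sex. Xist UMIs marked the rest, 2 dpi and 7 dpi slices and deleter slice 1, whereas Y-linked UMIs marked both wild-type slices at 21 dpi and deleter slice 2. Of the 3446 different spot barcodes over tissue, 2587 occurred in more than 1 area, since every area carries the same barcode set.

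Wnt ligands bind Frizzled receptors, with the co-receptors LRP5 and LRP6 in the branch that stabilizes β-catenin. Secreted Frizzled-related proteins (SFRPs) carry a Frizzled-like domain that binds Wnts, WIF1 also binds the ligands, and Dickkopf proteins such as DKK2 bind the LRP co-receptors. In the brain, Wnt signals maintain the blood-brain barrier and pattern the meninges, and in scars of other organs fibroblasts are a source of both Wnts and their secreted modulators.

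Members differed in the spots that held them. In the 6 slices at 7 and 21 dpi, 8 members reached 100 UMIs over both spot classes, and Sfrp4 and Dkk2 were at least 2-fold higher in fibrotic than in Col1a1-free spots of every slice, as were 1381 of 13897 genes (9.94%). Levels of Dkk2 in Col1a1-free spots rested on 4 to 12 UMIs per slice. No member was 2-fold lower in every slice, against 1098 genes (7.9%). The levels in both spot classes were known when the members were named, so this contrast is given as a description and no test was made. Of all UMIs in the slice, fibrotic spots held 5.64% to 32.5%, but they held 83.4% to 89.1% of Sfrp4 UMIs in 5 slices and 35.3% in 7 dpi slice 1, and 34.2% to 77.0% of Dkk2 UMIs.

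Promoter sequences were at hand for 5 members, Sfrp2, Sfrp5, Frzb, Dkk2 and Wif1; Sfrp1, Sfrp4, Dkk3 and Wnt5a had no entry. Shown are the 250 bases before the start of Sfrp2 and Dkk2, those of the 5 that were at least 2-fold higher in fibrotic spots of 5 and 6 slices, from RefSeq on GRCm38.p6, plus strand, chr3:83766071-83766320 and chr3:132085042-132085291. Capitals mark the TATA box core TATAAA.
Sfrp2: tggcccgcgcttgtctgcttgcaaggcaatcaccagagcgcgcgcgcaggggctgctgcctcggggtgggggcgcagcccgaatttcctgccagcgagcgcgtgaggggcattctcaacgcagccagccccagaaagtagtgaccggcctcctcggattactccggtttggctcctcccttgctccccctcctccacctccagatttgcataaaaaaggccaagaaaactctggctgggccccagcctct
Dkk2: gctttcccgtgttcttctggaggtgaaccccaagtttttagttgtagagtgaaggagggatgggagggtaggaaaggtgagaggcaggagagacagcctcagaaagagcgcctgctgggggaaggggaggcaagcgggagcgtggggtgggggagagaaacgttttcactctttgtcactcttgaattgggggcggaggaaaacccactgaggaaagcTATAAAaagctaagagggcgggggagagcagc
The Dkk2 motif starts 32 bases before the gene start. TATAAA was searched on both strands of windows that also take in the 50 bases after the start. It was found once in Dkk2 and once in Wif1, not in the other 3, and in 13.6% of 32851 such windows. The TCF/LEF core CTTTGA, searched the same way, was found once in Frzb, not in the other 4, and in 16% of all windows. The windows held 22 CpG in Sfrp2 and 11 in Dkk2 against a median of 7, and 76.9% and 58.6% of windows held fewer.

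Sfrp4 (ENSMUSG00000021319, GRCm38 chr13:19623104-19632994, plus strand) encodes a secreted Frizzled-related protein. In fibrotic spots it stood at 0.213 and 0.706 UMIs per 10000 in slices 1 and 2 at 7 dpi. At 21 dpi it reached 4.97 and 3.68 in wild type. Both deleter slices lay in the same range, at 4.59 and 4.14. All 4 slices at 21 dpi were above both at 7 dpi. The share of all genes with such a separation was not counted, for Sfrp4 or for the members below. The wild-type means were 0.459 ± 0.349 at 7 dpi and 4.33 ± 0.908 at 21 dpi (SD, n = 2 each), and the exact 95% Poisson intervals, which cover counting error only, were narrow beside this gap, at 0.126 to 0.336 in the lowest slice and 3.46 to 3.91 in the lower wild-type slice at 21 dpi. In Col1a1-free spots Sfrp4 was 0.0197 and 0.0359 at 7 dpi, 0.0660 and 0.0636 at 21 dpi, and 0.0506 and 0.0554 in the deleter slices. At rest it was 0.00820 in Col1a1-free spots, and at 2 dpi 0.0149. Fibrotic spots were thus 10.8- and 19.7-fold above Col1a1-free spots at 7 dpi and 57.9- to 90.6-fold above them at 21 dpi.

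**Figure D1:**
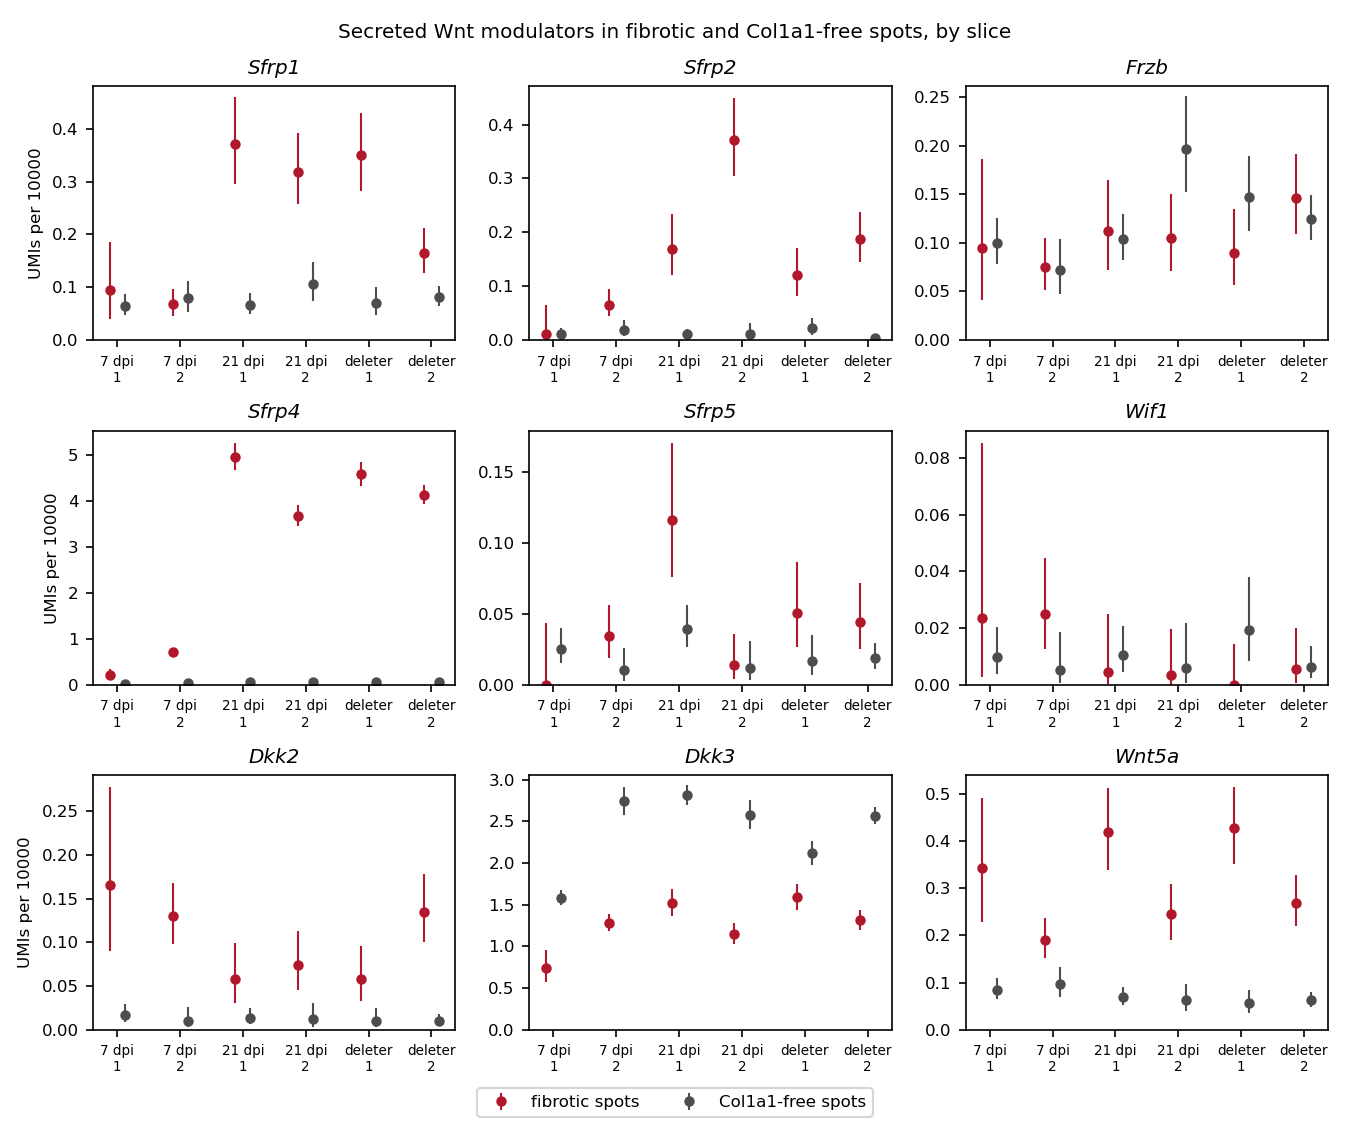
Level of each secreted Wnt modulator (y axis, UMIs per 10000, own scale per gene) in fibrotic (red) and Col1a1-free spots (grey) of the 6 slices at 7 and 21 dpi (x axis), with exact 95% Poisson intervals that cover counting error only. Sfrp4 in fibrotic spots was 0.213 and 0.706 at 7 dpi and 3.68 to 4.97 in the 4 slices at 21 dpi, and Dkk3 was lower in fibrotic than in Col1a1-free spots of every slice.

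Sfrp1 (ENSMUSG00000031548, chr8:23411502-23449632, plus strand), a further Frizzled-related protein, was near its Col1a1-free level in fibrotic spots at 7 dpi. At 21 dpi it was 5.51- and 3.01-fold above that level in wild type and 5.01- and 2.03-fold in the deleter slices. Fibrotic spots had 0.0945 and 0.0683 UMIs per 10000 at 7 dpi, 0.371 and 0.319 in wild type at 21 dpi, and 0.350 and 0.165 in the deleter slices. Col1a1-free spots of these slices held 0.0647 to 0.106. The groups at 7 and 21 dpi did not overlap, although deleter slice 2 lay between them and the other slices at 21 dpi.

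Sfrp2 (ENSMUSG00000027996, chr3:83766321-83774316, plus strand) followed the same order over fewer molecules. It rested on 1 and 29 UMIs in fibrotic spots at 7 dpi, which gave 0.0118 and 0.0660 per 10000. At 21 dpi it had 0.170 and 0.371 in wild type and 0.121 and 0.187 in the deleter slices, each above both slices at 7 dpi. In Col1a1-free spots it was 0.00418 to 0.0217. The noncoding gene Gm26771 overlaps Sfrp2 on the opposite strand.

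Wnt5a (ENSMUSG00000021994, chr14:28504750-28527448, plus strand) encodes a ligand that acts mainly through the β-catenin-independent branch. Its fibrotic level was 0.342 and 0.191 at 7 dpi, 0.420 and 0.245 at 21 dpi, and 0.428 and 0.270 in the deleter slices. The times overlapped, and in every slice the fibrotic level was above the Col1a1-free level of 0.0555 to 0.0973, by 1.96- to 7.72-fold. Gm2670 lies on the opposite strand of Wnt5a.

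Dkk2 (ENSMUSG00000028031, chr3:132085292-132180304, plus strand), which encodes an LRP-binding Dickkopf protein, had its 2 highest wild-type levels at 7 dpi. Fibrotic spots held 0.165 and 0.130 at 7 dpi, 0.0581 and 0.0736 at 21 dpi, and 0.0584 and 0.135 in the deleter slices, where slice 2 fell within the range at 7 dpi. Its Col1a1-free level was 0.00941 to 0.0169, so the fibrotic level was 4.40- to 14.3-fold higher. These folds rested on few molecules, at 13 to 57 UMIs per slice in fibrotic spots and 4 to 12 in Col1a1-free spots.

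Dkk3 (ENSMUSG00000030772, chr7:112116017-112159057, minus strand), a divergent Dickkopf relative that is abundant in forebrain neurons, ran the other way. It was 0.744 to 1.59 in fibrotic and 1.58 to 2.81 in Col1a1-free spots, and its fibrotic level was 0.444 to 0.750 of the Col1a1-free level in the 6 slices. Its level rose with distance from the scar in most bins, from 0.744 to 1.59 in fibrotic spots to 1.47 to 3.07 at 6 or more steps.

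Like Dkk2, the other 3 members were sparse. Frzb (ENSMUSG00000027004, chr2:80411970-80447625, minus strand), also a Frizzled-related protein, was 0.0751 to 0.146 in fibrotic and 0.0717 to 0.197 in Col1a1-free spots, and was the higher in fibrotic spots of 3 slices out of 6. Sfrp5 (ENSMUSG00000018822, chr19:42197971-42202252, minus strand) was 0.0140 to 0.116 in fibrotic spots of 5 slices and had no UMI among the 846868 of 7 dpi slice 1, which allows a level of up to 0.0354 per 10000. Wif1 (ENSMUSG00000020218, chr10:121033960-121100650, plus strand) had 17 UMIs in all fibrotic spots of the 6 slices and was too sparse for any test within them.

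The first comparison asked whether the members' levels within fibrotic spots differed between wild-type slices of the sub-acute stage at 7 dpi and the chronic stage at 21 dpi, with UMIs summed per slice and tested with edgeR. Sfrp4, Sfrp1 and Sfrp2 were higher at 21 dpi, and the other 5 members tested did not pass the threshold. In all, 583 of 13289 genes (4.39%) passed an adjusted p of 0.05, 332 of them (2.5%) higher at 21 dpi. Fold changes are given as 7 over 21 dpi, so that negative values mark a higher level at 21 dpi. Sfrp4 differed by -3.01 on the log2 scale (SE 0.33, adjusted p = 0.00114). For Sfrp1 the difference was -2.19 (SE 0.39, adjusted p = 0.0105). Sfrp2 differed by -2.31 (SE 0.49, adjusted p = 0.0235). These levels were known when the genes were chosen, so the tests are not independent evidence. Time, capture area and sex coincided in this contrast and cannot be told apart by it.

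Of the members that did not pass, Dkk2 had a log2 difference of 1.09 (SE 0.42, adjusted p = 0.193), toward 7 dpi. Wnt5a had -0.47 (SE 0.36, adjusted p = 0.535), Dkk3 -0.30 (SE 0.23, adjusted p = 0.542), Frzb -0.42 (SE 0.36, adjusted p = 0.592) and Sfrp5 -1.15 (SE 0.87, adjusted p = 0.537). The median over the 8 members tested was -0.81, and over all genes 0.02. The members were chosen with these levels known, so their median is a description only. It was -0.86 over 3 other secreted antagonists, -0.75 over 4 secreted agonists, -0.53 over 6 fibroblast markers and -0.30 over 21 receptors and co-receptors. Over 6 other ligands it was 0.03, over 13 transduction genes 0.02 and over 9 target genes 0.09. Sfrp4 passed in all 13 alternatives, with log2 differences of -4.30 to -2.60. The Sfrp1 call was lost without either slice at 7 dpi (adjusted p = 0.0516 without slice 1 and 0.225 without slice 2), with a Col1a1 minimum of 2 (0.0628) and over the 75 spots with most Col1a1 in each slice (0.510). The Sfrp2 call was lost without slice 1 or 2 at 7 dpi (0.102 and 0.115) or slice 2 at 21 dpi (0.0849), and under the same minimum and the same 75 spots (0.134 and 0.280).

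**Figure D2:**
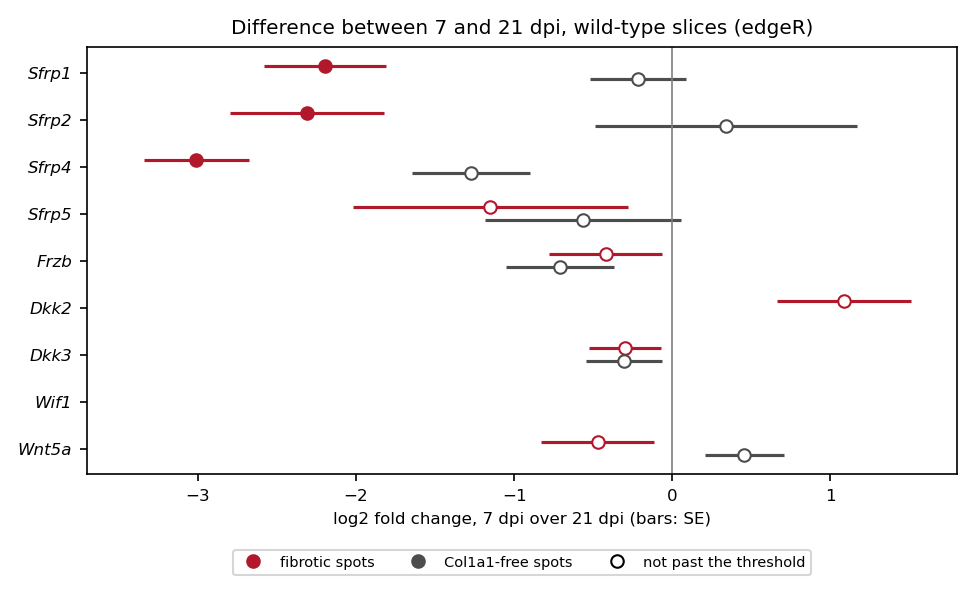
Log2 fold change of each member between 7 and 21 dpi in wild-type slices (x axis, 7 over 21 dpi; bars, SE from edgeR, 2 slices per time) in fibrotic (red) and Col1a1-free spots (grey), filled where the adjusted p was under 0.05. Sfrp4 at -3.01, Sfrp2 at -2.31 and Sfrp1 at -2.19 are the filled points, all in fibrotic spots.

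The cell content of fibrotic spots moved with time as well. Summed levels of 5 myofibroblast markers were 15.1 and 18.4 at 7 dpi and 8.78 to 10.1 in the 4 slices at 21 dpi, and all 5 were higher at 7 dpi in the test. Plasma cell markers summed to 0.992 and 1.31 at 7 dpi, with Mzb1 at 0 in slice 1 and Jchain at 0 in slice 2, and to 15.8 to 64.2 at 21 dpi, with 3 of 5 higher at 21 dpi. Leptomeninges markers ran from 17.3 and 24.3 to 62.2 to 117 (2 of 6 higher at 21 dpi), and fibroblast markers from 52.2 and 94.2 to 83.5 to 143 (2 of 6, Dcn and Lum). Astrocyte markers were 16.01 and 17.2 at 7 dpi and 24.8 to 27.7 at 21 dpi, with 3 of 5 higher at 21 dpi (Gfap, Aqp4 and Slc1a3). Choroid plexus markers, of an epithelium that also held Sfrp1, were at 6.23 and 3.58 at 7 dpi and 1.97 to 35.1 at 21 dpi. More cells of a type and more RNA per cell cannot be told apart in these spots, and the part of these cell types in the members' differences was not tested.

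Values within matched spots are at hand for collagen level, position and sex. In spots with 20 or more Col1a1 UMIs per 10000, Sfrp4 was 0.484 and 1.01 at 7 dpi and 4.50 to 5.96 in the 4 slices at 21 dpi. Sfrp2 in the same spots was 0 and 0.118 at 7 dpi and 0.235 to 0.755 at 21 dpi. Sfrp1 in these spots was 0 and 0.0818 at 7 dpi, 0.166 and 0.125 in wild type at 21 dpi, and 0.244 and 0.0976 in the deleter slices, a narrower gap than in spots of 5 to under 10 Col1a1 UMIs per 10000, where it was 0.139 and 0.0489 at 7 dpi and 0.220 to 0.696 at 21 dpi. Fibrotic spots at most 2 steps from the tissue edge were 103 of the 112 in slice 1 at 7 dpi. In such spots Sfrp4 was 0.242 and 0.817 at 7 dpi and 1.59 to 3.01 at 21 dpi. Sfrp1 there was 0.0941 and 0.0756 at 7 dpi and 0.118 to 0.178 at 21 dpi, a narrower gap than over all fibrotic spots. These Sfrp1 levels rested on 7 and 11 UMIs at 7 dpi and 11 to 18 per slice at 21 dpi, and their Poisson intervals overlapped between the times. Sfrp2 there was 0.0134, on 1 UMI, and 0.165 at 7 dpi and 0.255 to 1.26 at 21 dpi. Deleter slice 1, the only slice at 21 dpi with Xist UMIs as at 7 dpi, had 4.59 for Sfrp4, 0.350 for Sfrp1 and 0.121 for Sfrp2.

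In Col1a1-free spots no member differed between the times. There, 444 of 14149 genes (3.14%) passed, 426 of them higher at 7 dpi, and 7 members were tested. Sfrp4 came nearest, with -1.27 (SE 0.37, adjusted p = 0.130), and passed only without the filter on low counts (0.0278). The time difference of fibrotic spots was then set against that of Col1a1-free spots within the same slices. For the members this is not independent evidence, since it is built from the levels that were known when they were named. The difference was unequal for 567 of 14147 genes (4.01%), 451 of them toward 21 dpi in fibrotic spots (3.19%), and Sfrp4 was the member called, at -2.14 (SE 0.37, adjusted p = 0.0160). Sfrp1 reached -2.0 (SE 0.48, adjusted p = 0.0549) and Sfrp2 -2.91 (SE 0.76, adjusted p = 0.0720). The Sfrp4 call was lost without slice 1 (adjusted p = 0.106) or slice 2 (0.0709) at 7 dpi and with a Col1a1 minimum of 2 (0.0634).

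Of the other pathway genes, 4 were called between the times in fibrotic spots, where 583 of 13289 genes (4.39%) passed over all genes. Igfbp4, which encodes an insulin-like growth factor binding protein that also antagonizes Wnt receptors, had 0.933 and 2.14 UMIs per 10000 at 7 dpi, 4.45 and 4.15 in wild type at 21 dpi, and 4.25 and 4.57 in the deleter slices. It was the 1 gene called of 3 other secreted antagonists tested, at -1.39 (SE 0.27, adjusted p = 0.0160). Of 21 receptors and co-receptors tested, 2 were called, both higher at 21 dpi. The co-receptor Lrp6 went from 0.401 and 0.476 to 0.833 to 0.890 in the 4 slices at 21 dpi (-0.90, SE 0.16, adjusted p = 0.0103). The receptor Fzd7 went from 0.307 and 0.300 to 0.525 to 0.626 (-0.93, SE 0.18, adjusted p = 0.0150).

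Of 9 Wnt target genes tested, Ccnd1, which encodes the cell-cycle protein cyclin D1 and answers to other signals too, was called. Its level was 1.57 and 1.13 at 7 dpi and 0.501 to 0.694 at 21 dpi (1.01, SE 0.19, adjusted p = 0.0159). The target genes Axin2 and Lef1 were at 0.06 (adjusted p = 0.956) and 0.73 (adjusted p = 0.488). None of 6 other ligands, 4 secreted agonists or 13 transduction genes passed the threshold. Among them, Wnt9a, the ligand with the most UMIs, was 0.123 to 0.202, the agonist Rspo3 0.118 to 0.438 and the β-catenin gene Ctnnb1 4.06 to 5.47 over the 6 slices.

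Genotype was compared at 21 dpi between the 2 wild-type and 2 deleter slices. No member was called in fibrotic spots, where 3 of 13289 genes (0.0226%) passed, with 839 at an unadjusted p under 0.05 and 9 called by DESeq2. Among them were Esr1 at -4.71, lower in deleter slices, and Fkbp5 at 2.11, higher there, named because the calls were few and after their values were seen. Sfrp4 was 4.33 ± 0.908 in wild type and 4.36 ± 0.318 in deleter slices (SD, n = 2 each), a log2 difference of 0.02 (SE 0.29). Sfrp2 had -0.80 (SE 0.39, adjusted p = 0.794) and Dkk2 0.60 (SE 0.42, adjusted p = 0.863). In Col1a1-free spots edgeR called 0 of 14149 genes (0%), with 420 at an unadjusted p under 0.05 and 2 by DESeq2. Each genotype was 1 capture area, so the 2 cannot be told apart.

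At 21 dpi, levels of Sfrp2, Sfrp4 and Wnt5a in fibrotic spots differed with depth below the tissue edge. No other member of the 8 tested was called. Depth was counted in array steps from the nearest position off the tissue, so that 1 is the outermost row of spots and a hole in the tissue also counts as an edge. This comparison was added after the pattern had been seen in the data, so its tests are not independent evidence. Fibrotic spots were divided into an outer (1 to 2 steps), a middle (3 to 5 steps) and a deep part (6 steps and over). Sfrp2 lay in the outer part, at 0.400 and 1.26 UMIs per 10000 in wild type and 0.255 and 0.456 in the deleter slices. In the middle part it was 0.00909, 0.0946, 0.0531 and 0.103 in the same order. Every outer value exceeded every middle value. Slice 2 at 7 dpi also had its highest Sfrp2 level outside, at 0.165 (24 UMIs), against 0.0146 in the middle and 0.0191 deep. Slice 1 at 7 dpi had too few Sfrp2 UMIs to compare. The share of all genes with such an order by depth was not counted, here or for the members below. With slice as a block, Sfrp2 was higher in the outer part by 3.09 on the log2 scale (SE 0.38, adjusted p = 0.000726), among 482 of 11725 genes called (4.11%), 218 of them higher outside (1.86%), and it passed in all 8 alternatives.

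Sfrp4 peaked in the middle part of all 4 slices. Wild-type slices held 3.01 and 2.65 outside, 7.43 and 5.60 in the middle, and 0.932 and 1.16 in the deep part. The deleter slices held 2.35 and 1.59 outside, 9.46 and 6.58 in the middle, and 0.774 and 3.82 in the deep part. The middle level was above the outer and the deep level of every slice. Sfrp4 was lower in the outer than in the middle part, at -1.61 (SE 0.36, adjusted p = 0.0247), as were 264 genes (2.25%). It was also lower in the deep part, at -2.15 (SE 0.39, adjusted p = 0.00305), where 1031 genes were called (8.79%), 608 of them lower (5.19%). The outer call was lost without slice 1 (adjusted p = 0.0501) or 2 (0.102) of wild type or deleter slice 1 (0.138), and the deep call without deleter slice 1 (0.0557).

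Wnt5a had its middle maximum in the same 4 slices, at 0.527, 0.269, 0.669 and 0.396, against 0.344, 0.233, 0.334 and 0.237 outside and 0.212, 0.214, 0.214 and 0.175 deep. The fall toward the deep part was called, at -1.10 (SE 0.22, adjusted p = 0.00556), and that toward the outside was not, at -0.71 (SE 0.19, adjusted p = 0.0530). The deep call was lost with a Col1a1 minimum of 10 (adjusted p = 0.552), in wild type alone (0.293) and without deleter slice 1 (0.101). Sfrp1 was at 0.178, 0.150, 0.118 and 0.171 outside and at 0.423, 0.468, 0.873 and 0.274 deep. Its deep values all exceeded its outer ones, but neither step past the middle part passed, at -0.83 (SE 0.42, adjusted p = 0.315) for outer over middle and 0.95 (SE 0.37, adjusted p = 0.137) for deep over middle.

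**Figure D3:**
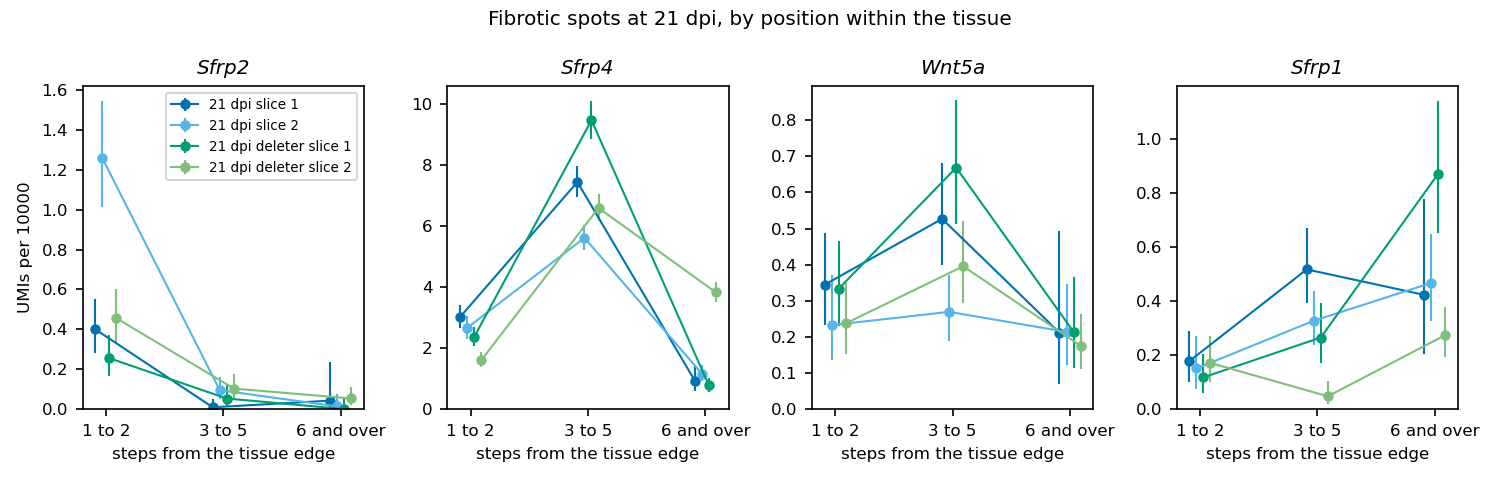
Level of 4 members in fibrotic spots of the 4 slices at 21 dpi (y axis, UMIs per 10000) by array steps from the tissue edge (x axis), with exact 95% Poisson intervals; lines join the parts of 1 slice. Sfrp2 was highest at 1 to 2 steps and Sfrp4 and Wnt5a at 3 to 5 steps of all 4 slices, while Sfrp1 was highest at 6 steps and over in 3 slices.

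Marker genes also changed with depth. None of 6 fibroblast markers differed between outer and middle part, whose sums were 111 to 178 and 74.9 to 201, whereas all 6 were lower in the deep part, at 20.5 to 72.9. Plasma cell markers peaked in the middle like Sfrp4, at 4.60 to 22.8 outside, 23.2 to 122 in the middle and 3.09 to 42.0 deep, with 3 of 5 lower outside and 4 of 5 lower deep. Macrophage and microglia markers were lower outside for 5 of 6, at 32.8 to 67.6 against 83.5 to 128. Of 6 leptomeninges markers, 2 (Slc6a13 and Igf2) were higher outside, with sums of 70.2 to 151 outside and 79.0 to 158 in the middle, and 4 were lower deep, at 23.7 to 37.4. Mural cell markers were higher outside for 2 of 5 tested (Rgs5 and Myh11), at 2.43 to 2.82 against 1.47 to 1.75. Endothelial markers were higher outside for 2 of 5 (Pecam1 and Flt1), at 2.64 to 4.55 against 2.28 to 3.22. Myofibroblast markers were higher outside for 2 of 4 tested (Acta2 and Postn), at 11.1 to 12.2 against 8.71 to 12.0. Oligodendrocyte markers (5 of 5) and astrocyte markers (3 of 5) were higher deep. Among these parts, 1 plasma cell and 1 leptomeninges marker were at 0 in the deep part of wild-type slice 1, and 1 myofibroblast marker was at 0 in its middle part and in the deep part of all 4 slices. Mural cell markers had 1 to 2 genes at 0 in the deep part of 3 slices. The part of these cell types in the members' layers was not tested.

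Outside the members, pathway genes called by depth are named after their values were seen. Over all genes, 4.11% were called between outer and middle part and 8.79% between deep and middle part. Rspo3, an R-spondin that raises receptor levels at the cell surface, fell from the outside inwards, with 1.65 for outer over middle (SE 0.21, adjusted p = 0.000764) and -2.28 for deep over middle (SE 0.37, adjusted p = 0.00163). The antagonist Igfbp4 had the same order, at 0.66 (SE 0.15, adjusted p = 0.0247) and -1.18 (SE 0.16, adjusted p = 0.000405). Of 19 receptors and co-receptors tested, Lrp5 and Reck were higher in the outer part and 8 were lower in the deep part, namely Fzd1, Fzd2, Fzd6, Fzd7, Lrp6, Ror2, Adgra2 and Reck. Of 13 transduction genes, Wls, which carries Wnt ligands to the cell surface, was lower in the deep part. The target gene Tnfrsf19 was higher outside, at 0.92 (SE 0.22, adjusted p = 0.0303).

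**Figure D4:**
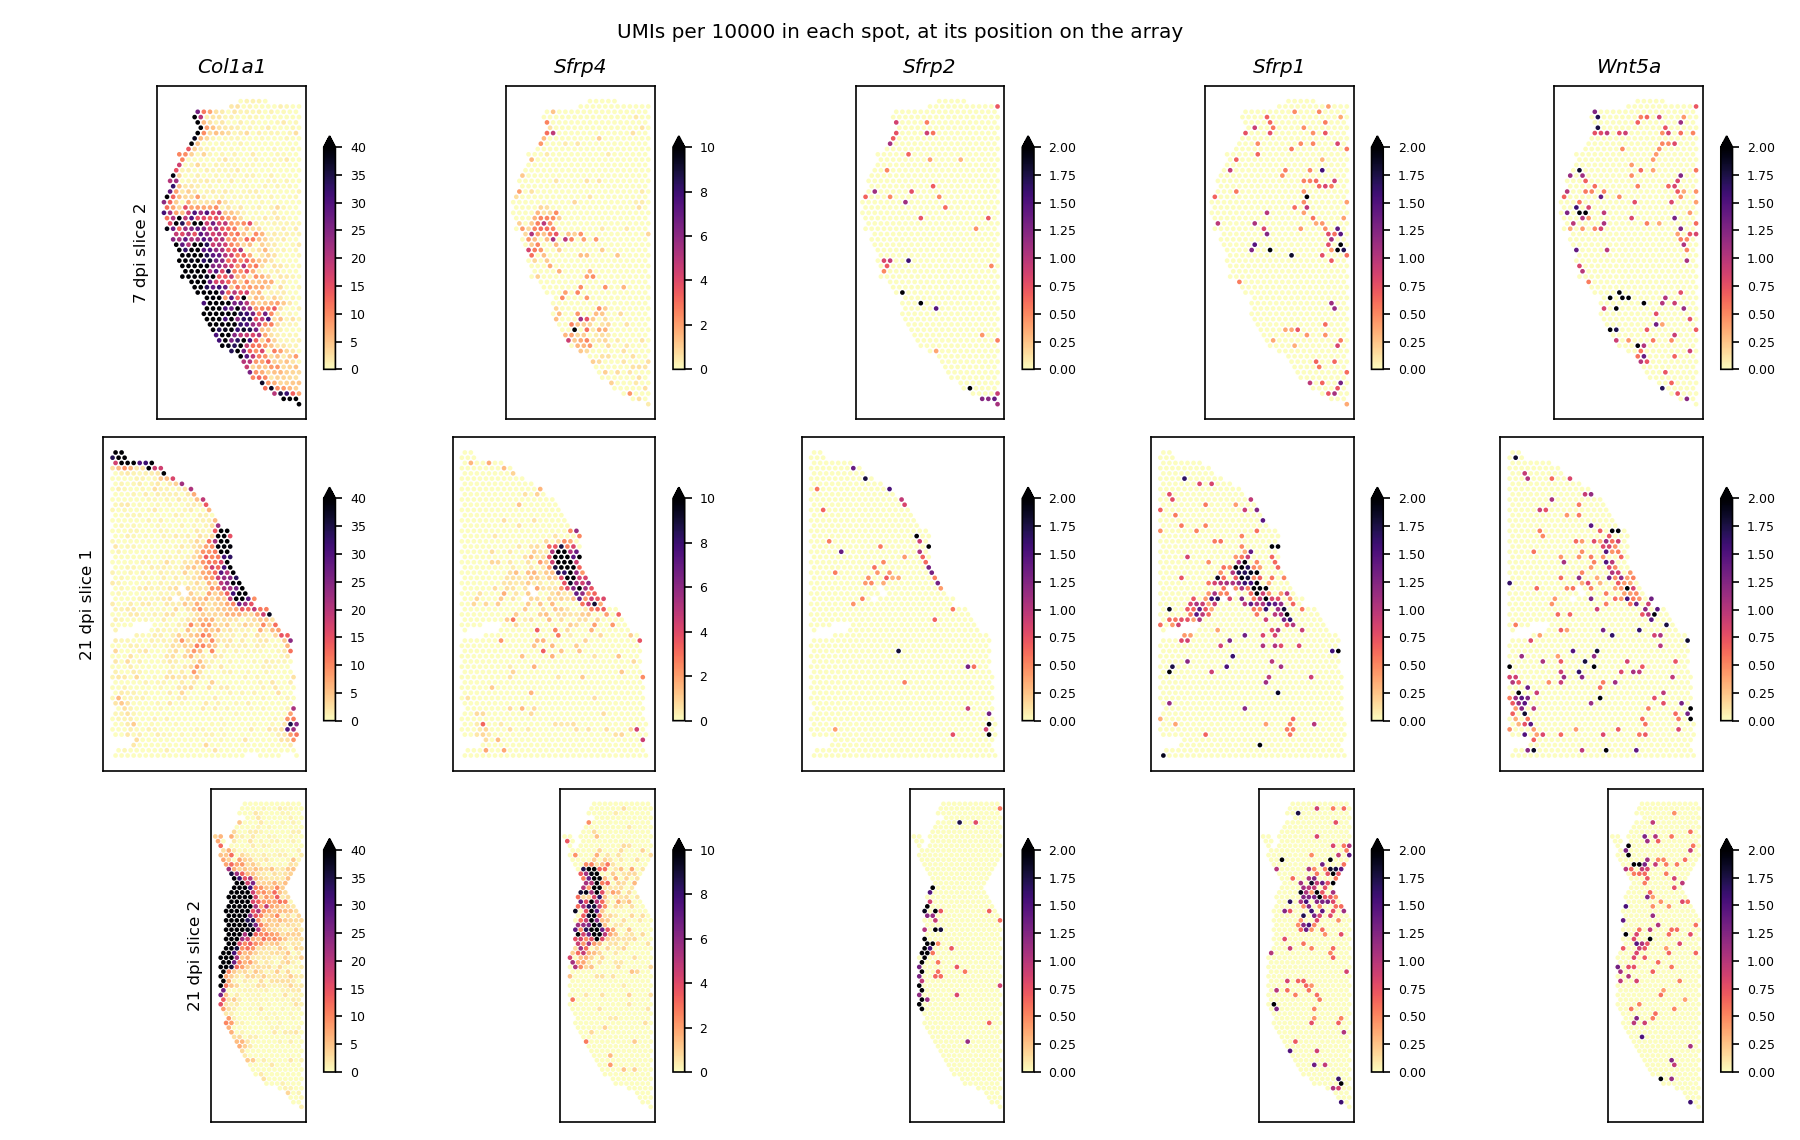
Spots of 7 dpi slice 2 and both wild-type slices at 21 dpi drawn at their array positions and coloured by UMIs per 10000 of Col1a1, Sfrp4, Sfrp2, Sfrp1 and Wnt5a, with values past the top of each scale in black. At 21 dpi Sfrp2 followed the outer margin of the Col1a1-rich area, Sfrp4 filled its body and Sfrp1 lay along and beyond its inner margin; at 7 dpi no such Sfrp1 band was seen.

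Around the scar, distance was counted in steps from the nearest fibrotic spot. Sfrp4 fell steeply at 21 dpi, from 3.68 to 4.97 within fibrotic spots to 0.319 to 0.826 at 1 step, 0.180 to 0.320 at 2 steps and 0.0257 to 0.0835 at 6 or more steps. Sfrp1 did not fall at the margin. It was 0.421 and 0.339 at 1 step in wild type and 0.567 and 0.305 in the deleter slices, each above the fibrotic level of its own slice, and 0.0571 to 0.111 at 6 or more steps. At 7 dpi Sfrp1 was 0.0322 and 0.0530 at 1 step, against 0.0781 and 0.0797 at 6 or more steps. The levels at 1 step rested on few UMIs, and this difference by distance was not tested.

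Spots 1 step away, a comparison added after this had been seen, were tested between the times. For the members, these tests are therefore not independent evidence. The levels of Sfrp1 in these spots at 7 dpi rested on few UMIs. Sfrp1 was higher at 21 dpi, at -3.03 (SE 0.47, adjusted p = 0.0413), as 1 of 31 genes called among 12419 (0.25%), 25 of them higher at 21 dpi (0.201%). Sfrp4 was at -2.75 (SE 0.50, adjusted p = 0.0722), and passed in 5 alternatives, among them DESeq2 (0.000491). The Sfrp1 call was lost without slice 1 or 2 at 7 dpi (adjusted p = 0.193 and 0.0811) or at 21 dpi (0.0826 and 0.131), and over 1 to 2 steps (0.0872). At 1 step, astrocyte markers summed to 20.3 and 23.7 at 7 dpi and 36.2 to 47.7 at 21 dpi, with 0 of 5 called by edgeR, and oligodendrocyte markers to 32.3 and 39.4 and 50.7 to 212, also with 0 of 5 called. Leptomeninges markers summed to 5.39 and 9.53 at 7 dpi and 32.1 to 48.6 at 21 dpi, with Ptgds called. Choroid plexus markers were 4.44 and 4.65 at 7 dpi and 17.8 and 14.5 in wild type at 21 dpi, with Ttr called. In the deleter slices they were 2.03 and 2.40. Plasma cell markers went from 1.10 and 0.936, with 1 and 2 genes at 0, to 2.97 to 15.3, with Igkc and Igha called. All these calls were higher at 21 dpi. The part of these cell types in the Sfrp1 band was not tested.

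**Figure D5:**
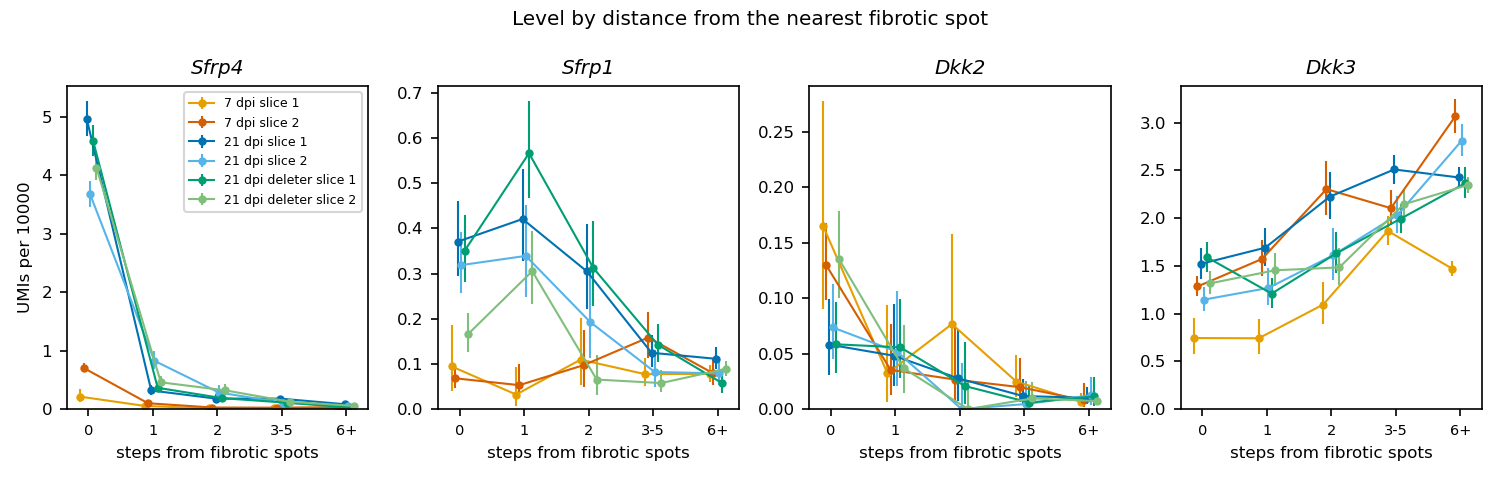
Level of 4 members (y axis, UMIs per 10000) by steps from the nearest fibrotic spot (x axis, 0 is within fibrotic spots) in the 6 slices at 7 and 21 dpi, with exact 95% Poisson intervals. At 1 step, Sfrp1 was 0.305 to 0.567 in the slices at 21 dpi and 0.0322 and 0.0530 at 7 dpi, whereas Sfrp4 had dropped to 0.826 or less in every slice.

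The tissue rim, where leptomeninges cover the brain surface, was examined outside fibrotic spots in all 8 slices, edge against interior within each slice. No member was called, and 2 of 15244 genes were (0.0131%), with 1438 at an unadjusted p under 0.05 and 86 by DESeq2. These were Prg4 at 3.65 and Pcp4 at -1.27, named after their values were seen because they were so few. Sfrp2 was at 0.22 (SE 0.68), Sfrp4 at 0.72 (SE 0.47) and Wnt5a at 0.54 (SE 0.33). The edge held 0 to 2 Sfrp2 UMIs per slice, too few to show whether Sfrp2 differs there. It was 13 spots in deleter slice 1, 16 in slice 2 at 7 dpi and 23 in deleter slice 2. Of 6 leptomeninges markers, 0 were called, with a median log2 difference of 1.63. With fibrotic spots included, 3430 of 15599 genes were called, 1853 of them higher at the edge. Sfrp2 was then higher at the edge by 3.10, Wnt5a by 1.05 and Sfrp4 by 0.79. Fibrotic spots bring in levels that were known when the members were chosen, so these 3 values are not independent evidence.

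Sfrp5 and Sfrp1 were also found with the choroid plexus, the epithelium that makes cerebrospinal fluid. Of Col1a1-free spots, those with at least 100 UMIs per 10000 of 5 choroid plexus markers were set against those under 10 in the 4 slices with 38 to 104 such spots, a division made after the data were seen and given without a test. Sfrp5 was 0.244, 0.200, 0.205 and 0.0923 in choroid spots of 2 dpi, 7 dpi slice 1, 21 dpi slice 1 and deleter slice 2, against 0.00195 to 0.0268 elsewhere. Sfrp1 was 0.666, 0.243, 0.222 and 0.501 against 0.0373 to 0.0519. Both were higher in choroid spots of each slice, and Frzb was lower, at 0.00555 to 0.0855 against 0.102 to 0.145. Choroid marker sums in Col1a1-free spots ran from 2.34 to 177 between slices, and their part in the Col1a1-free levels of Sfrp5 and Sfrp1 was not tested.

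Spots near the Col1a1 threshold did not stand apart. The lowest fibrotic spot had 5.01 and the highest other spot 4.99 Col1a1 UMIs per 10000. The 120 spots from 5 to under 6 held 0.913 of Sfrp4, 0.393 of Sfrp1 and 0.0733 of Dkk2, and the 174 spots from 4 to under 5 held 0.655, 0.361 and 0.0528.

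Genes with the most similar pattern were found by Pearson correlation of log2 levels over 14 sums, fibrotic and Col1a1-free of the 6 slices and Col1a1-free of rest and 2 dpi, among 9935 genes. The sums share slices and capture areas, so the values are descriptive. Sfrp4 was most like H2-Eb1, Cpz and Tns2 (r = 0.99 each). H2-Eb1, an antigen-presentation gene, went from 0.307 and 0.658 at 7 dpi to 1.42 to 2.12 at 21 dpi in fibrotic spots. Sfrp2 was most like Tnmd (r = 0.97), Kcne4 (0.96) and Clec11a (0.96), Sfrp1 like Rpusd4, Fdx1 and Apod (0.92 each), Wnt5a like Serinc3 and Soat1 (0.98 each), and Dkk3 like A330023F24Rik (0.97) and Acap3 (0.96).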

How the data were processed

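Fresh-frozen slices were profiled on 4 Visium capture areas. The deposited files hold raw UMI counts per gene and spot, which the authors made with Space Ranger 2.0.0 on mm10, per the submitters' processing notes, and spot positions on the array in the deposited position lists, from which tissue pieces, edges and steps were derived. Levels are UMIs of a gene per 10000 UMIs of all genes. Counts were summed per slice and spot class; slices of an area are its 2 connected tissue pieces, numbered by array column. The replicate is the slice (1 mouse), and spots were never treated as replicates. Summed counts were tested with edgeR 4.0.16 (TMM, filterByExpr, quasi-likelihood F test, Benjamini-Hochberg over all genes, 0.05) in R 4.3.3, the 6 slices at 7 and 21 dpi in one fit, with slice as a block for within-slice comparisons; DESeq2 1.42.0 was an alternative. Other alternatives changed the Col1a1 minimum, the count filter, the samples and each slice in turn. The model was checked on simulated data, with 200 genes changed, where the fibrotic time comparison recovered 95% of 4-fold and 19% of 2-fold changes. Only genes above a minimum mean count were changed, and all genes had the same fixed dispersion. The rates may therefore be too high for sparse members such as Sfrp5 and for members that vary more between slices.

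The members and gene lists were chosen with earlier results of these data known; depth, margin and choroid comparisons were added after the data were seen. Text names all members, Col1a1, Cthrc1, Wnt pathway genes called in fibrotic spots or among the 3 with most UMIs of their list, and the 3 genes most like a member with at least 200 UMIs; markers are those of the fixed lists. Some genes that this rule or a short list of calls would name are not reported here. Gene positions are from GENCODE M21 (GRCm38; 9 of 9 matched), promoters from RefSeq. Depth of 3 UMIs was taken as the limit a count of 0 allows.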

Additional observations from a re-analysis of the deposited data

Results flagged for a closer look

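The difference between 7 and 21 dpi was unequal in fibrotic and Col1a1-free spots, by a test of that difference itself, for 3 genes of the members and pathway lists. Sfrp4 differed by -2.14 on the log2 scale (SE 0.37, adjusted p = 0.0160), with fibrotic spots at 0.213 and 0.706 UMIs per 10000 at 7 dpi and 4.97 and 3.68 at 21 dpi, and Col1a1-free spots at 0.0197 and 0.0359 and at 0.0660 and 0.0636. These levels were known when Sfrp4 was chosen, so its test is not independent evidence, and it did not pass without slice 1 (adjusted p = 0.106) or slice 2 (0.0709) at 7 dpi. Igfbp4 differed by -0.98 (SE 0.23, adjusted p = 0.0478). Fzd1, a Frizzled receptor, differed by -1.47 (SE 0.32, adjusted p = 0.0376), with 0.189 and 0.478 rising to 0.657 and 0.522 in fibrotic spots and 0.0929 and 0.154 against 0.0963 and 0.0606 in Col1a1-free spots. These were 1 of 8 members tested, 1 of 3 other secreted antagonists and 1 of 22 receptors and co-receptors. Of 8 other ligands, 4 secreted agonists, 13 transduction genes and 9 target genes tested, 0 were called. Over all genes, 567 of 14147 passed (4.01%), and 451 of them (3.19%) moved toward 21 dpi in fibrotic spots relative to Col1a1-free spots. The lists were not tested as sets.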

How the results depend on the processing

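Sfrp4, Sfrp1 and Sfrp2 kept their direction between the times in fibrotic spots and by depth, and Sfrp4 and Sfrp1 at 1 step from them, under the alternatives run. Calls of members that were lost stand beside each result. For pathway and marker genes the alternatives were not read out gene by gene, so whether their calls would be kept is not known. Sfrp1 by class and by depth, Sfrp2 by class and Wnt5a outside against middle passed under some alternatives, in each case including removal of the count filter. Counts of calls moved more. With a Col1a1 minimum of 2, 160 genes differed between the times in fibrotic spots, 0 between genotypes, 364 in the time difference between spot classes, and 236 were 2-fold lower in fibrotic spots of all slices, or 517 with a mean of spot levels. With 75 spots per slice, 48 differed between the times. Without the count filter, counts rose to 1317 (time, fibrotic), 1702 (time, Col1a1-free), 171 and 84 (genotype, fibrotic and Col1a1-free), 1433 (time by class), 1114 (outer), 1656 (deep) and 336 (1 step). DESeq2 gave 9 and 2 for genotype, 356 for time by class, 86 for the edge, 321 for outer and 174 for 1 step. Fitting only the 2 groups gave 1 for genotype and 50 for 1 step, wild-type slices alone 192 outer and 674 deep, a minimum of 10 gave 335 deep, and 1 to 2 steps gave 58. The edge count was 3430 over all spots, 48 over Col1a1-free spots and 6 with an edge of 2 rows. Leaving out each slice in turn gave 251 to 633 (time, fibrotic), 111 to 332 (time, Col1a1-free), 1 to 93 and 0 to 2 (genotype), 60 to 776 (time by class), 0 to 52 (edge), 79 to 578 (outer), 305 to 1315 (deep) and 6 to 99 (1 step). Some log2 values that did not pass changed sign. These were Wnt5a between the times (0.023 over 75 spots, -0.87 to 0.10 leaving out each slice), Sfrp4 between genotypes (-0.079 with a minimum of 2, -0.38 over 75 spots, -0.18 to 0.26 leaving out each slice) and, at the edge, Sfrp4 (-0.15 over Col1a1-free spots) and Sfrp2 (-0.012 to 0.51 leaving out each slice). The cause of these shifts was not tested. A slice alone in its group was assumed to vary like the others. With 2 slices per group, 2-fold differences were recovered in 17% to 28% of simulated cases in comparisons between slices, and in the time difference between spot classes 2% of 2-fold and 60% of 4-fold differences were, so a member that did not pass may still differ. Within-slice comparisons were paired by slice. Between times and genotypes no pairing was possible, because each slice came from a different mouse.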
